A study of Mus musculus with 8 samples.

Results

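Ntrk2, the gene of the neurotrophin receptor TrkB, was described together with 7 other genes of neurotrophin and GDNF signalling, 8 of the 53801 genes listed. Ntrk2 was chosen by its log2 fold change in these libraries, where it was lower in YFP-positive cells, so its group difference is given as a description with no test. The other 7, Ntrk3, Bdnf, Ntf3, Gdnf, Gfra1, Gfra2 and Ret, were taken as members of the same ligand and receptor families. All 8 were found once by symbol, and all 8 were among the 15945 genes that passed the filter on low counts.

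RNA was sequenced from stromal cells of the small intestine without CD45, carried by leukocytes, and without CD31, carried by endothelium. The cells came from the ulcers of LTβRYFP mice, and every mouse in both groups had received indomethacin, an anti-inflammatory drug that blocks cyclooxygenases and can ulcerate the gut. Sorting gave a YFP+ and a YFP- fraction, called YFP-positive and YFP-negative here, with 4 libraries each, numbered 1 to 4. No untreated mice and no unsorted cells were analysed here, and the ages of the mice, the number of animals behind a library and the way the YFP reporter is driven are not stated in the labels.

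Neurotrophins are secreted growth factors that signal through Trk receptor tyrosine kinases. BDNF binds TrkB, and NT-3, the product of Ntf3, binds mainly TrkC, the product of Ntrk3. GDNF binds the GPI-anchored coreceptor GFRα1, neurturin prefers GFRα2, and both complexes signal through the receptor tyrosine kinase RET. In the gut, RET signalling drives the spread of neural crest cells and the formation of the enteric nervous system, while mesenchyme and smooth muscle supply GDNF. TrkB is also made in truncated forms without the kinase domain, which are common outside neurons.

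Total counts per library ranged from 12481608 to 29385718. Both libraries numbered 2 lay far from the others on the first principal component of log2 CPM, which held 35.5% of the variance, at 92.5 and 78.7 against -46.2 to -12.4. Libraries of equal number deviated together from their group means, and the deposited comparison differed from a DESeq2 fit blocked on replicate number by at most 5.0e-04 in log2 fold change. The numbers were taken to pair the libraries. The edgeR test without that block called 0 genes (0.0% of the genes tested) at an adjusted p of 0.05 and 325 (2.04%) at an unadjusted p of 0.05. DESeq2 without the block called 2, both lower (0.0068%). With the block, edgeR called 0.696% of the genes tested higher and 1.59% lower in YFP-positive cells, and "rose" and "fell" refer to that fit. The fibroblast genes Pdgfra and Col1a1 ranged from 1310 to 2025 CPM and from 4299 to 11349 CPM over the 8 libraries, where CPM is the count per 1e+06 counts after TMM scaling. The gate genes Ptprc, which encodes CD45, and Pecam1, which encodes CD31, ranged from 0.877 to 12.2 CPM and from 11.1 to 46.9 CPM. Ltbr stood at 51.5 to 81.2 CPM in YFP-negative and at 64.7 to 98.3 CPM in YFP-positive libraries.

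The 250 bases before the annotated start sites of Ntrk2 and Gdnf are shown because Ntrk2 was lower and Gdnf higher in YFP-positive cells in every pair. They are from RefSeq, build GRCm38.p6, at chr13:58806319-58806568 on the plus strand for Ntrk2 and at chr15:7809798-7810047 on the plus strand for the upstream of the 2 RefSeq start sites of Gdnf. Capitals mark the core of the cAMP response element, the sequence bound by CREB, which neurotrophin signalling activates.
Ntrk2: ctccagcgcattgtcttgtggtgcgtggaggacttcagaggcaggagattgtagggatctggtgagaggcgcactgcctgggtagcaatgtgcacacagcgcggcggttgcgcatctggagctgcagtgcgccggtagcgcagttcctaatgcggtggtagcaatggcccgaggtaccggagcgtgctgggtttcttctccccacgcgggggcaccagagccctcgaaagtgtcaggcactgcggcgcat
Gdnf: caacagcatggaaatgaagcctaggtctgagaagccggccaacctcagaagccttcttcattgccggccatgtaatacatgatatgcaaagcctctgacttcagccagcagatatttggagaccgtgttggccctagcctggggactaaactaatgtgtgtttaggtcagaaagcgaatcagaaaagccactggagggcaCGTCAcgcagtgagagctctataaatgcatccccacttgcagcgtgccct
The core, TGACG on either strand, stood once in the Gdnf window, on the minus strand with its first base 50 bases before the start (position -50), and not in the Ntrk2 window. It stood in the same window of 17.8% of the 32851 RefSeq start sites. The full cAMP response element, also searched, stood in neither window and in 1.55% of all. The NF-kB consensus, searched on both strands because the receptor named by the reporter signals through NF-kB, stood in neither window and in 7.25% of all. RefSeq start sites were found for 5 of the 8 members, 13 in all, and the other members are Ntrk3, Gfra2 and Ret. The downstream Gdnf start site had 0 matches to the core. Of the other start sites, 1 of Bdnf held the core, and 1 of Bdnf and the 1 of Gfra1 held the NF-kB consensus. A match of letters is a description and not a binding site.

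Ntrk2 was lower in the YFP-positive library of every pair. Ntrk2 (ENSMUSG00000055254, GRCm38 chromosome 13, 58806569 to 59133970, plus strand) stood at 38.7, 176, 55.4 and 25.2 CPM in YFP-negative replicates 1 to 4. It stood at 16.0, 103, 24.0 and 14.3 CPM in YFP-positive replicates 1 to 4. The 2 groups overlapped, because both libraries of replicate number 2 lay far above the rest, while within each pair the YFP-positive library was the lower. The YFP-positive level was 0.414, 0.587, 0.434 and 0.564 times the YFP-negative level in pairs 1 to 4. The group means were 73.9 ± 69.3 and 39.4 ± 42.8 CPM (SD, n = 4), and with the block the log2 fold change was -1.02 ± 0.104 (SE). Without the block the log2 fold change was -0.91 ± 0.729 (SE), and it moved to -0.029 when YFP-negative replicate 2 was left out and to -2.02 when YFP-positive replicate 2 was left out. With both libraries of replicate number 2 left out, the value with the block was -1.10 ± 0.141 (SE). The libraries kept are among those by which Ntrk2 was chosen, so that value is no separate check. Of all genes tested, 10.2% were lower in 4 of 4 pairs, and since Ntrk2 was chosen for this difference nothing is read from its own count.

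The range of the pair means of Ntrk2 was larger than its median difference within a pair, as it was for each of the 8 members. The highest library held 12.4 times the CPM of the lowest, the widest ratio of the 8 members. On the log2 scale the pair means spanned 2.82, and the median difference within a pair was 1.01. A full range and a median are unlike measures, and a range tends to be the wider, so nothing is read from their order. Bdnf came next with a span of pair means of 2.56, and Ntf3 had the narrowest span at 0.91. The annotation lists 10 transcripts of Ntrk2, 7 of them protein-coding, and the counts are per gene, so the kinase and the truncated forms of TrkB cannot be told apart. The annotation places 4 other genes within the span of Ntrk2, 3 of them on the opposite strand, and none overlaps its exons.

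**Figure D1:**
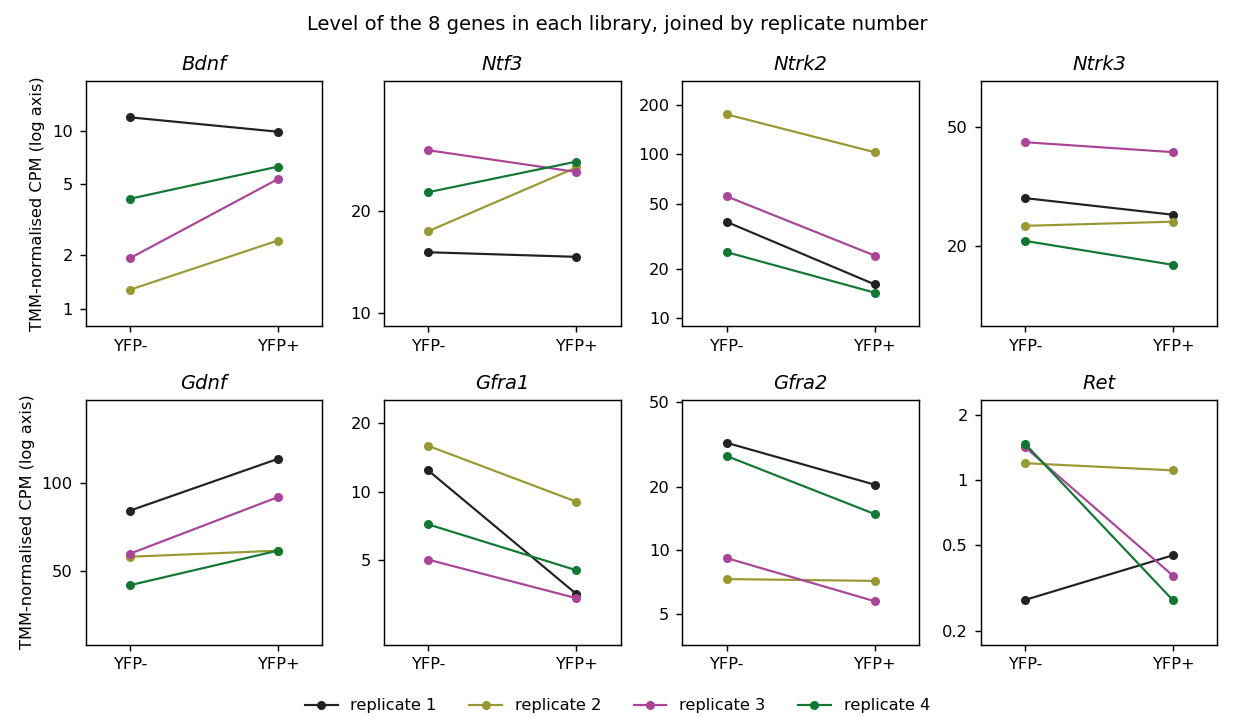
CPM (log axis) of each of the 8 genes in the YFP- and YFP+ libraries, 1 panel per gene and 1 line per replicate number. Ntrk2 drops along all 4 lines while replicate 2 lies far above the others, Gdnf climbs along all 4 lines, and Ret lies between 0.277 and 1.47 CPM.

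Ntrk3, the gene of the NT-3 receptor TrkC, did not pass the test. Ntrk3 (ENSMUSG00000059146, chromosome 7, 78175959 to 78738012, minus strand) stood at 28.9, 23.3, 44.4 and 20.8 CPM in the YFP-negative libraries 1 to 4 and at 25.4, 24.1, 41.1 and 17.3 CPM in the YFP-positive libraries 1 to 4. Replicate 3 was the highest in both groups, and the groups overlapped over nearly their whole range. With the block its log2 fold change was -0.13 (95% confidence interval -0.39 to 0.13, adjusted p = 0.808, edgeR). The difference between Ntrk3 and Ntrk2 was not tested. Without the block the direction turned to 0.15 when YFP-negative replicate 3 was left out and to 0.040 when YFP-positive replicate 4 was left out.

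Bdnf and Ntf3, the ligands of these receptors, did not pass the test. Bdnf (ENSMUSG00000048482, chromosome 2, 109674700 to 109727007, plus strand) stood at 11.9, 1.28, 1.92 and 4.15 CPM in the YFP-negative libraries 1 to 4 and at 9.89, 2.42, 5.36 and 6.29 CPM in the YFP-positive libraries 1 to 4. It was higher in YFP-positive cells in 3 of 4 pairs and lower in the first, and the groups overlapped. Its log2 fold change was 0.65 (95% confidence interval -0.051 to 1.35, adjusted p = 0.508 with the block, edgeR). Without the block it was 0.32, and it turned to -0.018 when YFP-positive replicate 1 was left out. An annotated gene on the opposite strand overlaps exons of Bdnf. No label states the strand setting used for counting, so whether reads of the 2 were kept apart is not known. The depth was small, with 15 counts of Bdnf in YFP-negative replicate 2 and 287 in YFP-positive replicate 1.

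Ntf3 (ENSMUSG00000049107, chromosome 6, 126101412 to 126166910, minus strand) stood at 15.1, 17.5, 30.3 and 22.8 CPM in the YFP-negative libraries 1 to 4 and at 14.7, 26.9, 26.1 and 28.0 CPM in the YFP-positive libraries 1 to 4. The pairs split evenly, 2 higher and 2 lower. For Ntf3 the log2 fold change was 0.16 (95% confidence interval -0.17 to 0.49, adjusted p = 0.823 with the block, edgeR). The interval holds modest changes in either direction.

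Gdnf, the gene of the ligand GDNF, rose in YFP-positive cells in the edgeR fit with the block, alone among the 7 members tested. Gdnf (ENSMUSG00000022144, chromosome 15, 7810846 to 7837575, plus strand) stood at 80.4, 55.8, 57.2 and 44.5 CPM in YFP-negative replicates 1 to 4. It stood at 121, 58.6, 89.6 and 58.6 CPM in YFP-positive replicates 1 to 4. The YFP-positive library was the higher in 4 of 4 pairs, as in 8.86% of all genes tested, but by only 1.05-fold in pair 2 against 1.51-fold, 1.57-fold and 1.32-fold in pairs 1, 3 and 4. The groups overlapped, since YFP-negative replicate 1 lay above YFP-positive replicates 2 and 4. The log2 fold change was 0.43 ± 0.0967 (SE; adjusted p = 0.0256 with the block and 0.99985 without it, edgeR). The call was lost without replicate 1 (0.38, adjusted p = 0.166), without replicate 3 (0.36, adjusted p = 0.230) and without replicate 4 (0.45, adjusted p = 0.0800), and it held without replicate 2 (0.55, adjusted p = 0.00184, edgeR with the block). In the authors' deposited table Gdnf had a log2 fold change of 0.43 and an adjusted p of 0.0176, where 0.939% of all genes were called higher.

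Gfra1 and Gfra2, the genes of the coreceptors for GDNF and neurturin, were lower in YFP-positive cells in 4 of 4 pairs without passing the edgeR test. Of all genes tested, 10.2% were lower in 4 of 4 pairs. Gfra1 (ENSMUSG00000025089, chromosome 19, 58235604 to 58455909, minus strand) stood at 12.4, 15.9, 5.02 and 7.19 CPM in the YFP-negative libraries 1 to 4 and at 3.55, 9.05, 3.4 and 4.51 CPM in the YFP-positive libraries 1 to 4. Pair 1 had the widest gap, with the YFP-positive level at 0.286 times the YFP-negative level, against 0.568, 0.677 and 0.628 times in pairs 2, 3 and 4. The log2 fold change was -0.96 ± 0.263 (SE; adjusted p = 0.0786 with the block, edgeR), and without replicate 1 it was -0.68 (adjusted p = 0.385, edgeR). In the authors' deposited table Gfra1 passed, with a log2 fold change of -0.97 and an adjusted p of 0.0481, where 2.07% of all genes were called lower. An annotated gene on the opposite strand overlaps exons of Gfra1, and whether reads of the 2 were kept apart in counting is not known.

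Gfra2 (ENSMUSG00000022103, chromosome 14, 70890120 to 70979838, plus strand) stood at 32.2, 7.33, 9.21 and 27.9 CPM in the YFP-negative libraries 1 to 4 and at 20.4, 7.18, 5.76 and 14.8 CPM in the YFP-positive libraries 1 to 4. Replicates 1 and 4 were high and replicates 2 and 3 low in both groups, so the groups overlapped, and pair 2 differed by only 0.980 times. The log2 fold change was -0.59 ± 0.180 (SE; adjusted p = 0.132 with the block, edgeR). Without replicate 2 it was -0.75 and passed (adjusted p = 0.0183, edgeR with the block).

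Ret, the gene of the signalling receptor shared by both coreceptors, was close to the limit of detection. Ret (ENSMUSG00000030110, chromosome 6, 118151745 to 118197718, minus strand) had 5, 14, 42 and 29 counts in YFP-negative and 13, 16, 9 and 7 counts in YFP-positive replicates 1 to 4. That is 0.278, 1.19, 1.42 and 1.47 CPM against 0.448, 1.10, 0.360 and 0.277 CPM, lower in 3 of 4 pairs and higher in the first. For Ret the log2 fold change was -0.98 (95% confidence interval -2.84 to 0.88, adjusted p = 0.796 with the block, edgeR). The interval is wide on both sides of 0, with few counts and with pair ratios from 0.189 to 1.61 times, and it holds the difference estimated for Gfra1.

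**Figure D2:**
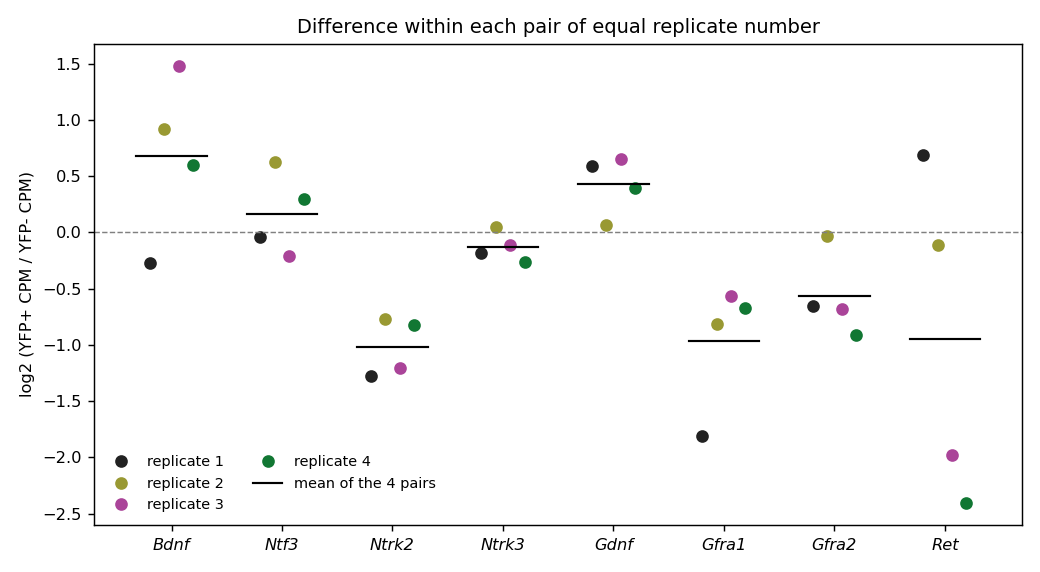
log2 ratio of YFP+ to YFP- CPM for each of the 4 pairs of equal replicate number (points, coloured by number) and their mean (bar), by gene. All 4 points of Ntrk2, Gfra1 and Gfra2 lie below 0 and all 4 of Gdnf above 0, while those of Bdnf, Ntf3, Ntrk3 and Ret lie on both sides.

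Levels of different genes were compared as CPM per kilobase of exon, over the union of all annotated exons, which understates a gene whose long exons are little used. On that scale the ligand Gdnf was the highest member, at 16.2 ± 4.10 in YFP-negative and 22.3 ± 8.16 in YFP-positive cells (SD, n = 4). Ntf3 followed at 12.5 ± 3.92 and 14.0 ± 3.63, and it exceeded Gdnf in 3 of 8 libraries, so that these 2 do not differ beyond their spread. The coreceptor gene Gfra2 stood at 5.41 ± 3.59 and 3.41 ± 1.94, and Ntrk2 at 3.83 ± 3.59 and 2.04 ± 2.22. Gfra2 was the higher of the 2 in 5 of 8 libraries. Without replicate 2, an alternative chosen after seeing the data, the mean of Ntrk2 was 2.06 ± 0.784 in YFP-negative and 0.938 ± 0.270 in YFP-positive cells (SD, n = 3). Gdnf was above Gfra2 in 8 of 8 libraries and Ntf3 above it in 7 of 8.

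Gfra1, Ntrk3 and Bdnf had lower means over all libraries, at 1.85 ± 0.904, 0.973 ± 0.350 and 0.774 ± 0.786 CPM per kilobase in YFP-negative cells and at 0.936 ± 0.486, 0.894 ± 0.334 and 0.963 ± 0.495 in YFP-positive cells (SD, n = 4). Without replicate 2 their means in YFP-positive cells were 0.698 ± 0.110, 0.926 ± 0.401 and 1.15 ± 0.384 (SD, n = 3), so that Ntrk2 at 0.938 ± 0.270 lay between them, within their spread. Their order differed between libraries: Gfra1 was above Ntrk3 in 5 of 8 and Ntrk3 above Bdnf in 5 of 8. Ret was the lowest in 8 of 8 libraries, at 0.161 ± 0.0818 and 0.0809 ± 0.0559. The order of the group means thus ran from Gdnf through Ntf3, Gfra2 and Ntrk2 to Gfra1, Ntrk3 and Bdnf and then Ret in YFP-negative cells. These stromal libraries held transcripts of the ligand GDNF at a far higher level than those of its signalling receptor, and RET protein was not measured.

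**Figure D3:**
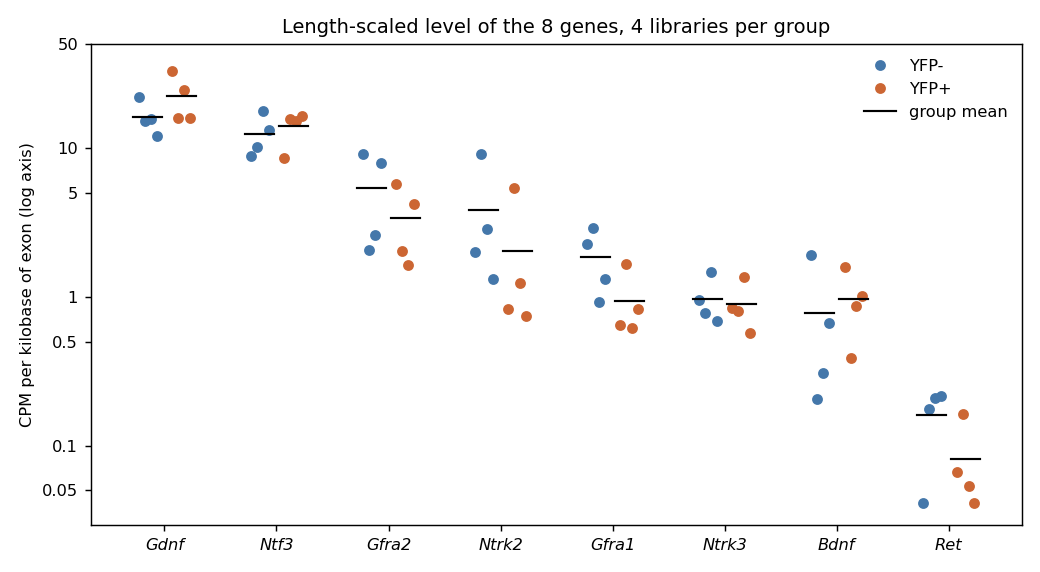
CPM per kilobase of exon (log axis) of each gene in every library, by group, with the group mean as a bar. Gdnf ranks first or second and Ret last in all 8 libraries, and the ranges of Ntrk2, Gfra1, Ntrk3 and Bdnf overlap. Gfra2 overlaps Ntrk2 and Gfra1 in range but is above Ntrk3 and above Bdnf in all 8 libraries.

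Another 80 genes of the 2 pathways were listed by role, of which 72 were tested. With the block, 2 rose and 4 fell (2.78% and 5.56% of those tested, against 0.696% and 1.59% of all genes), 66 did not pass, and the edgeR test without the block called 0 of them. The median log2 fold change of the 72 was -0.017 with the block, beside 0.0048 over all genes tested. Among the convertases that cut neurotrophin precursors, Pcsk6, the gene of PACE4, rose. Pcsk6 stood at 61.2, 39.8, 77.0 and 104 CPM in the YFP-negative libraries 1 to 4 and at 86.1, 55.2, 105 and 135 CPM in the YFP-positive libraries 1 to 4, higher in 4 of 4 pairs (log2 fold change 0.45 ± 0.0755, SE; adjusted p = 0.00422 with the block, edgeR). The general convertase Furin and the related Pcsk5 had log2 fold changes of -0.026 and -0.0081, and the neurotrophin gene Ntf5 had 2 counts in all.

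Among the other neurotrophin receptors and the sortilins, a family that sorts and binds neurotrophins and their precursors, 1 of 6 tested genes fell and 0 rose. Sorcs2, which binds proneurotrophins together with the receptor p75, stood at 235, 122, 110 and 230 CPM in the YFP-negative libraries 1 to 4 and at 153, 101, 83.6 and 161 CPM in the YFP-positive libraries 1 to 4. It was lower in 4 of 4 pairs, at a log2 ratio of -0.45 ± 0.0737 (SE; adjusted p = 0.00327 with the block, edgeR). Sorl1, a sorting receptor, had a log2 fold change of -0.064. The other tested genes of this list are named after their values were seen. Ngfr, the gene of p75, Sort1 and Sorcs1 had log2 fold changes of -0.45, -0.69 and -1.70 and did not pass (adjusted p = 0.621, 0.296 and 0.203 with the block, edgeR). Sorcs3 had a higher estimate, at 0.63, and did not pass either (adjusted p = 0.891 with the block, edgeR).

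Of the 26 genes listed as adaptors and signalling genes of the neurotrophin receptors, all tested, 0 passed in either direction. Of these the most abundant was Irs2, whose mean was 386 ± 139 CPM without and 367 ± 126 CPM with YFP (SD, n = 4). Maged1 followed, with 277 ± 40.1 and 261 ± 57.4 CPM. Of the GDNF family ligands and coreceptors, 5 of 9 were tested and 0 passed. Ncam1, an alternative GDNF receptor, stood at 286 ± 105 and 318 ± 131 CPM (SD, n = 4; log2 fold change 0.13, adjusted p = 0.503 with the block, edgeR), and the syndecan Sdc3 at 57.3 ± 6.09 and 61.6 ± 8.97 CPM. Among 12 tested adaptors of RET, Grb10 fell from 304 ± 84.2 to 251 ± 66.1 CPM (SD, n = 4), which on the log2 scale is -0.27 ± 0.0610 (SE; adjusted p = 0.0268 with the block, edgeR). Its call was lost without replicates 1, 3 or 4 (adjusted p = 0.0877, 0.159 and 0.130) and with library sizes alone (adjusted p = 0.190). The ubiquitin ligase gene Cblb had a log2 fold change of -0.098.

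Of 18 genes listed as target and feedback genes of ERK and CREB signalling, 1 rose and 1 fell. Spry1, a feedback inhibitor of receptor tyrosine kinase signalling, stood at 86.8, 98.4, 36.6 and 41.5 CPM in the YFP-negative libraries 1 to 4 and at 112, 123, 54.9 and 55.6 CPM in the YFP-positive libraries 1 to 4. Its log2 fold change was 0.42 ± 0.0804 (SE; adjusted p = 0.0101 with the block, edgeR), and the call was lost without replicate 3 (adjusted p = 0.105). Arc, an immediate early gene, fell from 55.4 ± 28.9 to 42.2 ± 26.6 CPM (SD, n = 4; log2 fold change -0.48 ± 0.103, SE; adjusted p = 0.0214 with the block, edgeR). Its call was lost without replicates 1, 3 or 4 (adjusted p = 0.05003, 0.137 and 0.119) and with library sizes alone (adjusted p = 0.0533). The immediate early genes Egr1 and Fos were lower in 4 of 4 pairs, as were 10.2% of all genes tested. They had log2 fold changes of -0.32 and -0.42 and did not pass (adjusted p = 0.164 and 0.227 with the block, edgeR). These genes respond to many receptors, and which receptor acted on them was not measured.

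**Figure D4:**
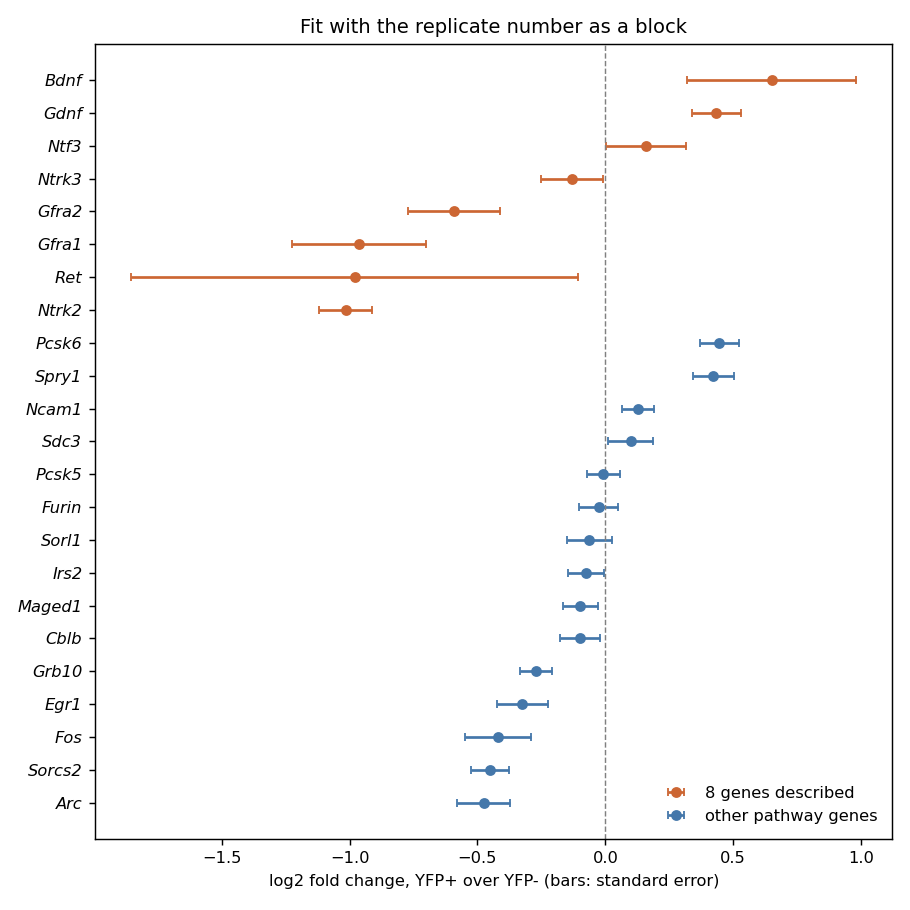
log2 fold change of YFP+ over YFP- cells from the blocked fit, with bars of 1 standard error, for the 8 genes described and for 15 other genes of the pathway lists. Ntrk2 lies at -1.02 and Gdnf at 0.43, and the bar of Ret is the widest.

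Markers of other cells moved along with these differences, and in bulk RNA fewer cells of a type and less RNA per cell cannot be told apart. Enteric neurons express Ret, and enteric glia lie beside them in the same ganglia. Of 12 enteric glia markers, 8 were tested, 2 fell and 0 rose, and their summed level was lower in 4 of 4 pairs, at 276 to 390 CPM in YFP-negative and 188 to 246 CPM in YFP-positive libraries. Most of that sum was the sodium channel gene Scn7a. Without it the sum was 66.5, 17.6, 16.9 and 10.8 CPM in YFP-negative and 6.54, 12.6, 7.96 and 8.08 CPM in YFP-positive replicates 1 to 4. YFP-negative replicate 1, which had the highest glial sum, also belonged to the pair with the widest gap in Gfra1, and leaving out that pair moved Gfra1 from -0.96 to -0.68. Gfra1 itself was highest in YFP-negative replicate 2, at 15.9 CPM, where that sum was 17.6 CPM. Ret was lowest of the YFP-negative libraries in replicate 1, at 0.278 CPM, and higher in its YFP-positive partner, at 0.448 CPM. The defining glial genes were low: Sox10 at 0.405 to 3.90 and 0 to 0.800 CPM, Gfap at 0.557 to 9.57 and 0 to 0.280 CPM and S100b at 0 to 0.557 and 0 CPM in YFP-negative and YFP-positive libraries. Of the glial markers 1, Sox2, was at 0 in all libraries. The part of glial RNA in the differences of Ntrk2, Gfra1, Gfra2 and Ret was not tested.

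Of 14 enteric neuron markers, 7 were tested and 0 passed. Their summed level was 12.3 to 26.0 CPM in YFP-negative and 10.5 to 15.5 CPM in YFP-positive libraries, with Elavl4 at most at 0.552 CPM. Fibroblast and muscle markers moved too. Adventitial fibroblasts and trophocytes had 13 markers tested, of which 8 fell and 0 rose. Their summed levels were 14280 to 19841 CPM against 9052 to 13464 CPM, lower in 4 of 4 pairs. Most of that sum was the complement gene C3, at 10927 to 14966 CPM in YFP-negative and 6505 to 9736 CPM in YFP-positive libraries. Of 10 tested markers of subepithelial fibroblasts 5 rose and 0 fell, at 3012 to 3731 CPM against 3175 to 4461 CPM, and of 8 smooth muscle markers 3 rose and 0 fell, at 453 to 798 CPM against 544 to 1174 CPM, both higher in 4 of 4 pairs. Of 9 pan-fibroblast markers 5 fell and 0 rose, and of 7 pericyte markers 1 rose and 1 fell. The markers of leukocytes, endothelium, epithelium, mesothelium and interstitial cells of Cajal gave 0 calls. These shifts ran beside the lower Ntrk2 and the higher Gdnf in every pair, and their part in them was not tested. The share of counts from mitochondrially encoded genes was also lower in 4 of 4 pairs, at 8.07% to 12.4% in YFP-negative and 7.71% to 9.43% in YFP-positive libraries.

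**Figure D5:**
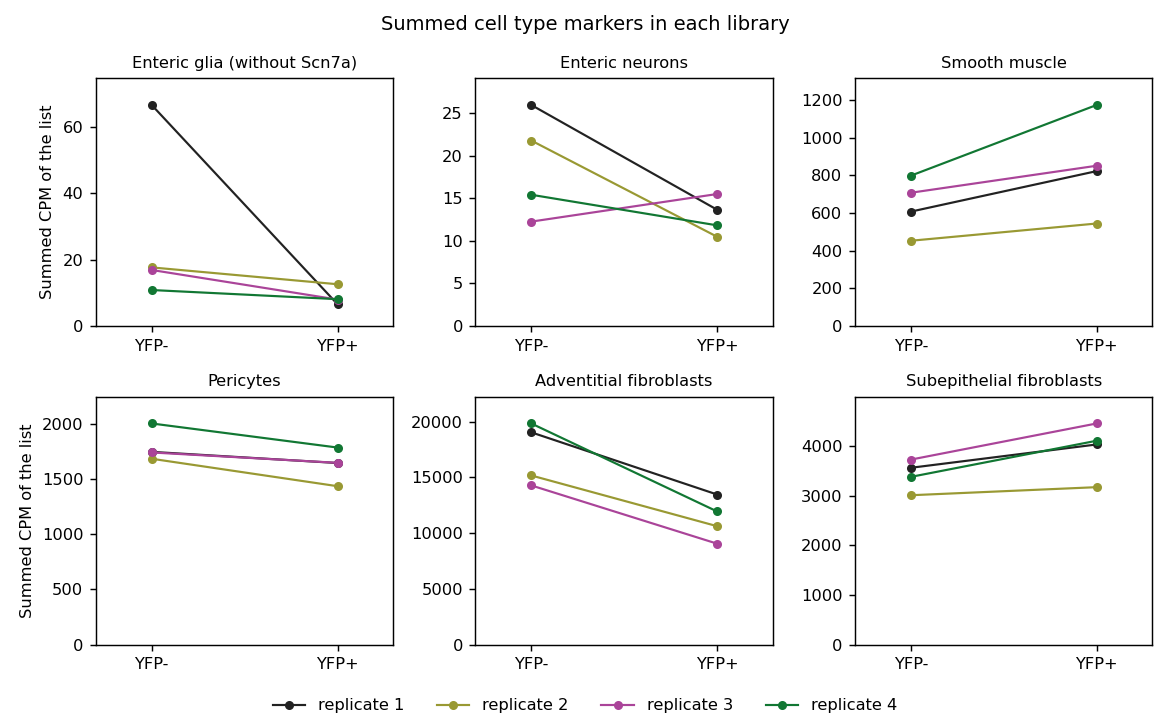
Summed CPM of 6 marker lists in the YFP- and YFP+ libraries, 1 line per replicate number, on axes that start at 0. Glial markers without Scn7a and adventitial markers are lower in YFP+ in all 4 pairs, with a glial sum of 66.5 CPM in YFP- replicate 1, and subepithelial and smooth muscle markers are higher in all 4.

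The genes whose log2 CPM followed Ntrk2 most closely over the 8 libraries were sought among 10102 named genes with a mean of at least 5 CPM, as a description. They were Abi2, a regulator of actin assembly, the IL-17 receptor gene Il17ra, the pentraxin Ptx3, Rrs1, a ribosome assembly factor, and Clpx, a mitochondrial chaperone, with Pearson correlations of 0.98, 0.98, 0.97, 0.97 and 0.97. All 5 were highest in both libraries of replicate number 2, as Ntrk2 was. Over the 6 libraries without that number the correlations were 0.92, 0.92, 0.89, 0.86 and 0.87. These 6 are among the 8 libraries by which the 5 genes were chosen, so the values are no separate check. Abi2 spanned only 48.0 to 78.5 CPM, while Ptx3 spanned 12.4 to 315 CPM. Among the members, Gfra1 had a correlation of 0.76 with Ntrk2 and Bdnf one of -0.79, which were 0.49 and -0.50 without replicate number 2. Ntrk3 ran the other way, from 0.13 over 8 libraries to 0.70 over 6, the highest of the members there.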

How the data were processed

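Total RNA libraries (SMARTer stranded pico kit, per the labels' protocols) were sequenced from 4 YFP-positive and 4 YFP-negative samples. Cutadapt 3.4, STAR 2.7.3a, featureCounts 2.0.1, DESeq2 and GRCm38 are named in the submitters' processing notes. The authors deposited raw counts per gene, which were used here, normalised values rounded by the authors and treated as a score, and a comparison with a log2 fold change, p-value and adjusted p-value. The labels do not say whether replicates are separate animals, and p-values then measure only the spread between these samples. Counts were filtered with filterByExpr, scaled with TMM and tested with the quasi-likelihood test of edgeR 4.0.16 (R 4.3.3) with Benjamini-Hochberg adjustment over all 15945 genes. The same fit was run with the replicate number as a block. Correlations of equal-numbered libraries' deviations from the group means were 0.233, 0.487, 0.376 and 0.376, and the highest between different numbers was 0.0456. DESeq2 1.42.0, limma 3.58.1 voom, other scalings and filters and left-out replicates were alternatives. The fits were tested on simulated data. The members, pathway lists and marker lists were chosen with earlier results of these data known. Named pathway genes were those called with the block and the most abundant of each list, and Ngfr, Sort1, Sorcs1 and Sorcs3 were named after their values were seen. Some genes of these lists are counted but not reported here by name.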

Additional observations from a re-analysis of the deposited data

Results flagged for a closer look

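Dixon's test of the highest and lowest sample, run on 48 groups of 4 libraries from 24 genes, marked 4 values, and chance marks about 5% of groups. Ntrk2 in YFP-positive replicate 2 stood at 103 CPM, far above the other YFP-positive libraries at 14.3 to 24.0 CPM. Ntf3 in YFP-positive replicate 1 stood at 14.7 CPM, below the others at 26.1 to 28.0 CPM. Cblb, the gene of a ubiquitin ligase that acts on receptor tyrosine kinases, stood at 300.1 CPM in YFP-negative replicate 2 against 145 to 165 CPM in the others, and at 324 CPM in YFP-positive replicate 2 against 128 to 146 CPM.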

How the results depend on the processing

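The replicate number as a block moved the edgeR calls from 0 and 0 to 111 higher and 253 lower over all genes, and to 2 and 4 over the pathway genes. DESeq2 without the block called 2 lower. With the block, all genes called higher and lower numbered 155 and 341 with DESeq2, 228 and 388 with voom, 99 and 265 with RLE scaling, 119 and 216 with upper-quartile scaling, 212 and 153 with library sizes alone, 253 and 420 with any count of at least 1 and 131 and 285 with a CPM of at least 2. In the same order the pathway genes numbered 2 and 5, 3 and 6, 2 and 4, 2 and 4, 3 and 2, 3 and 6, and 2 and 4. Leaving out a replicate gave 0 to 130 higher and 0 to 296 lower over all genes, and 0 to 4 and 0 to 5 over the pathway genes, and with the block 73 and 121 without replicate 1, 130 and 296 without replicate 2, 38 and 119 without replicate 3 and 47 and 120 without replicate 4. Without the block, Ntrk3 turned to 0.15 without YFP-negative replicate 3 and to 0.040 without YFP-positive replicate 4, and Bdnf to -0.018 without YFP-positive replicate 1. Over all left-out libraries without the block, Ntrk3 ranged from -0.40 to 0.15 and Bdnf from -0.018 to 1.29. Of 11 alternatives with the block, Gdnf was called in 8, Gfra1 in 3 and Gfra2 in 2. The cause was not tested. Ret was not tested with a CPM of at least 2. Ret had 90 and 45 counts in the 2 groups, and its depth and its spread between replicates were not separated.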
